A study of Mus musculus with 18 samples.

Results

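The 51 genes of the WNT signalling set described here were the members of the Wnt, Fzd, Sfrp, Dkk, Axin, Lgr, Rspo and Tcf/Lef families, with Notum and Znrf3, found by their symbols among the 53672 genes counted in 18 RNA-seq libraries of mouse embryonic stem cells (ESCs). They comprised 18 ligand genes, 10 Frizzled receptors, 9 secreted antagonists, 8 genes of the R-spondin arm, 2 Axin genes and 4 Tcf/Lef genes. The cells were E14TG2a ESCs, in which both copies of Hdac1 and of Hdac2 carry lox sites, so that 4-hydroxytamoxifen (OHT) activates Cre and deletes both genes in every line. Each line also stably expressed a Flag-tagged HDAC1 rescue protein from a piggyBac vector, either HDAC1-WT or HDAC1 with 1 substitution, HDAC1–E63R or HDAC1–Y48E, on the surface that partner proteins bind. All 3 lines were sampled untreated and with 1 µM OHT at day 5, with 3 libraries in each of the 6 groups, in serum with leukaemia inhibitory factor. Untreated cells of every line therefore hold endogenous HDAC1 and HDAC2 beside the rescue protein, and OHT-treated cells of the mutant lines have the mutant protein as their only intended HDAC1/2. Each rescue is represented by a single line, the number of clones behind it is not given in the sources used here, and a difference between lines cannot be told apart from a difference between cell populations.

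WNT ligands are secreted glycoproteins that carry a lipid added by Porcupine and bind Frizzled receptors together with the LRP5/6 co-receptors. Engagement of the receptors inhibits the destruction complex built on AXIN, so that β-catenin accumulates, enters the nucleus and binds TCF/LEF factors, and several of the resulting targets, among them Axin2, Notum and Znrf3, restrain the pathway in turn. In mouse ESCs the pathway is known to favour self-renewal, in large part because β-catenin relieves repression by TCF7L1 of naive pluripotency genes.

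Promoters of 5 members on which the results turn are shown first, as the 250 bases before the RefSeq start (GRCm38.p6), written 5′ to 3′ on the gene's strand. Wnt7a (chr6:91411354-91411603, minus strand), Wnt4 (chr4:137277385-137277634, plus strand) and Fzd7 (chr1:59481897-59482146, plus strand) are shown because they were called in both mutant lines, the first 2 higher and the last lower. Capitals mark the CG dinucleotides, of which there were 34, 44 and 17.
Wnt7a: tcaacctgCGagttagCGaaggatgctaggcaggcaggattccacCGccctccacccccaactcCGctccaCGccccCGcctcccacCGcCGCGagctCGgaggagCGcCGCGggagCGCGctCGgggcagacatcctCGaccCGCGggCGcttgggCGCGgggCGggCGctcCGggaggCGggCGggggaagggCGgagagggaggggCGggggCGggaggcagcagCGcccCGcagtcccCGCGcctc
Wnt4: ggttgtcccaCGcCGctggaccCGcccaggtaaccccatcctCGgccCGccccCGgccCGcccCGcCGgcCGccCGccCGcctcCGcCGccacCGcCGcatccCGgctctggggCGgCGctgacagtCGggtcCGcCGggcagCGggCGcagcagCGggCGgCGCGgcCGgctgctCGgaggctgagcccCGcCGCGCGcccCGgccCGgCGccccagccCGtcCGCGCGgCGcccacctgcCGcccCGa
Fzd7: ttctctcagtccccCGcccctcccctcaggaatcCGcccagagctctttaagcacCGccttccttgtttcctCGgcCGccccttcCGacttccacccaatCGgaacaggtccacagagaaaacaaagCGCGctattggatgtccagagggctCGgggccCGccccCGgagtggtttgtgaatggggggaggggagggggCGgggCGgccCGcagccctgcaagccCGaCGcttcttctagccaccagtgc
Dkk1 (chr19:30549497-30549746, minus strand) and Wnt11 (chr7:98834862-98835111, plus strand) are shown because their promoters held the core of the TCF/LEF recognition motif, searched as CTTTGAT or CTTTGAA on both strands and marked here in capitals. The motif began 117 bases before the RefSeq start in Dkk1, and in Wnt11 it lay on the opposite strand, 51 bases before the start. In GENCODE M21 the Dkk1 gene begins further upstream, at 30549665, so the motif lies inside the gene by that annotation.
Dkk1: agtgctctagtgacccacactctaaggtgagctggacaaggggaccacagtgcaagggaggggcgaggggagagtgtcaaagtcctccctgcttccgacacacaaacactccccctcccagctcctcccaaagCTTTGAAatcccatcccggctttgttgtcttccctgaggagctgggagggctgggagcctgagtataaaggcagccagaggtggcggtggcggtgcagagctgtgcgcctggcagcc
Wnt11: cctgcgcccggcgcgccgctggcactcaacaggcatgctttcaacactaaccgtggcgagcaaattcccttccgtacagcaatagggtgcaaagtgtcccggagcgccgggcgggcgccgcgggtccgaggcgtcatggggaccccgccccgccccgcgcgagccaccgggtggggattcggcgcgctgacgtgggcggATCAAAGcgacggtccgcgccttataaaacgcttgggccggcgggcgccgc
RefSeq promoters of 300 bases (250 before and 50 after the start) were matched to 33 of the 51 members and gave 41 windows, and Wnt7b had no entry. The TCF/LEF core was present in 3 of these 41 windows (7.32%), the third belonging to 1 of the Wnt5b promoters at 71 bases before the start, and in 8.65% of all 32851 windows. At least 10 CG dinucleotides were held by 82.9% of the member windows, with a median of 26, against 43.5% of all windows, with a median of 7. A motif match is a description of these letters and not of a bound site.

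Depth was between 9019615 and 11454638 counts on genes per library, and a floor of 3 counts, the upper limit that a count of 0 allows, lay between 0.262 and 0.333 CPM (counts per 1000000 counts on genes, scaled with TMM factors). Hdac1 was at 200.7–210.4 CPM in the untreated HDAC1-WT line and 168.6–178.7 CPM after OHT, at 94.9–110.2 and 112.5–131.2 CPM in the HDAC1–E63R line, and at 97.9–103.6 and 110.1–113.1 CPM in the HDAC1–Y48E line. Hdac2 went from 168.7–208.4 to 112.4–132.6 CPM, from 152.5–209.6 to 149.7–158.3 CPM and from 149.1–153.9 to 139.2–151.9 CPM in the same order, and neither gene was called after OHT in any line. The counts cover whole genes, including any transcript that survives the deletion and any rescue reads that map there, so they do not check the deletion. Replicate 3 of the untreated HDAC1–E63R line stood apart. Its chi-square per degree of freedom against its 2 group mates was 56.6–62.7, against 3.35–7.21 for all other pairs of replicates, and its median log2 deviation from the group was 0.37 for genes in the shortest quintile and −0.51 for those in the longest, so results for that line are also given without it. The 8 ESC markers checked (Pou5f1, Sox2, Nanog, Zfp42, Esrrb, Dppa5a, Tdgf1 and Fgf4) were present in every group.

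Two-sided edgeR quasi-likelihood tests were run for 18791 genes, of which 42 were members. Members were called where the p-value, adjusted by Benjamini-Hochberg over all tested genes, was under 0.01 and the log2 fold change was above 1 or below −1. In the HDAC1-WT line, no member was called after OHT, with 0 higher against 0.0373% of all tested genes and 0 lower against 0.016%. Of the 42, 3 had an unadjusted p under 0.05, as did 1852 of all 18791 tested genes, and DESeq2 also called 0. In the HDAC1–E63R line 5 members were called higher against a background of 4.74% and 1 lower against 1.18%. In the HDAC1–Y48E line 11 members were called higher, that is 11 of 42 against a background of 10.8%, and 5 of 42 lower against 5.84%. Leaving out each library of that line in turn gave 7 to 10 members called higher and 4 to 6 lower. The higher calls fell on 3 of 14 tested ligands with HDAC1–E63R and on 7 of 14 with HDAC1–Y48E. The median log2 fold change of the 14 ligands was 1.47 and 2.90 in these lines, where the median of all tested genes was 0.03 and 0.05. Among the 14, Wnt16 with HDAC1–E63R was fitted at a log2 of 6.04, where its counts allow at least 2.47-fold. Such fitted sizes depend on the prior count, and the ligand medians, which can be overstated for this reason, were not recomputed at the bounds. Over all 42 tested members the medians were 0.04, 0.23 and 0.40 in the HDAC1-WT, HDAC1–E63R and HDAC1–Y48E lines, and with genes absent from 1 group set at their bound they were 0.00, 0.13 and 0.40. Of the 51 members 9 were too low to test, and those that passed can include genes that passed through the group in which they are high. Without replicate 3 of the untreated HDAC1–E63R line, 4 members were called higher and 1 lower in that line, with backgrounds of 4.87% and 1.06%.

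**Figure D1:**
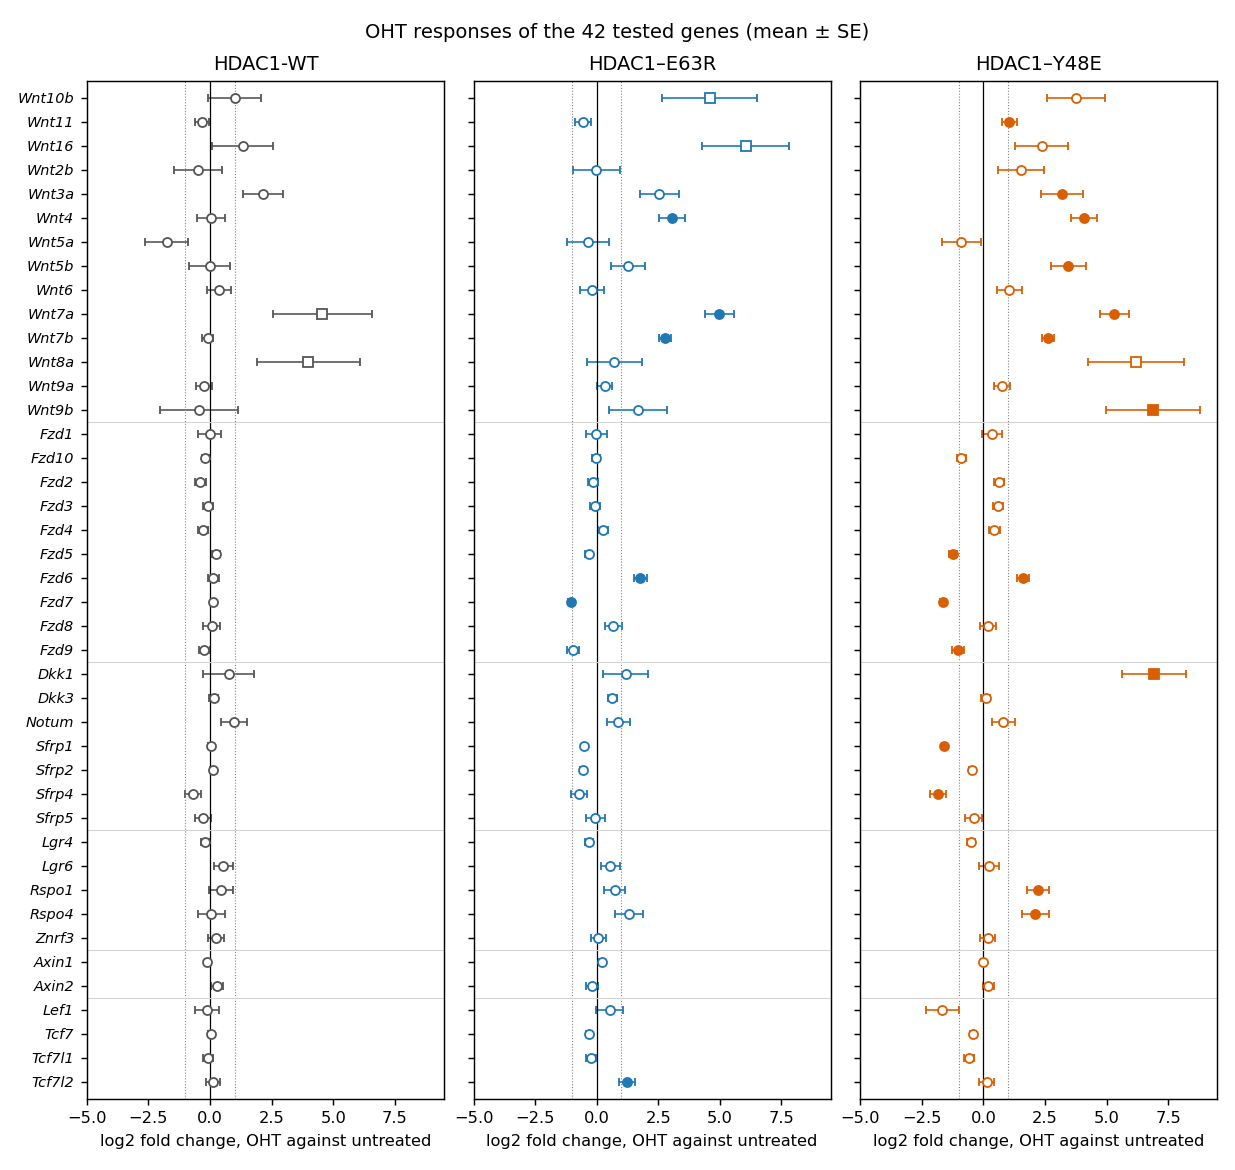
Log2 fold change (horizontal axis, OHT against untreated, points with SE bars) of the 42 tested members, ordered by role and separated by grey lines, in the HDAC1-WT (grey), HDAC1–E63R (blue) and HDAC1–Y48E (orange) lines. Filled symbols were called, squares mark genes with 3 counts or fewer over the untreated group, whose fitted size and SE depend on the prior count, and dotted lines mark a log2 change of 1 in either direction. All symbols in the HDAC1-WT panel are open. The filled symbols of the HDAC1–Y48E panel are 11 members called higher, 7 of them ligands, and 5 called lower, of which 0 are ligands.

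The ligands Wnt7b, Wnt7a and Wnt4 and the receptor Fzd6 were called higher in both mutant lines. These 4 genes were 80.0% of the 5 calls with HDAC1–E63R and 36.4% of the 11 with HDAC1–Y48E, against 80.9% and 35.5% for the higher calls over all tested genes. Fzd7 was called lower in both, which was 100% of 1 call and 20.0% of 5, against 72.4% and 14.6% over all tested genes. The 2 lists come from separate untreated and OHT libraries.

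Ligand genes formed a small pool in untreated ESCs. After OHT, 3 of 14 tested were called higher with HDAC1–E63R (background 4.74%) and 7 of 14 with HDAC1–Y48E (background 10.8%). Of the 7, Wnt3a, Wnt11 and Wnt9b lost their call without untreated HDAC1–Y48E replicate 1, and also without replicate 3. Compared per length, as RPKM (CPM divided by the exon length in kilobases) summed over the 18 ligands, the HDAC1-WT line held 9.48–11.7 RPKM untreated and 7.26–12.7 RPKM after OHT. The HDAC1–E63R line went from 8.18–11.2 to 29.9–33.0 RPKM and the HDAC1–Y48E line from 8.91–9.48 to 49.1–53.5 RPKM. Neither mutant line overlapped between its own groups, whereas the HDAC1-WT groups did. Wnt7b supplied 37.4% of the ligand RPKM in the untreated HDAC1-WT line and 41.0% in the HDAC1–Y48E line after OHT. Wnt7a supplied 0% and 17.2% of the pool in these groups, Wnt4 3.88% and 10.2%, and Wnt9a, a ligand that was not called, 21.1% and 6.92%.

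**Figure D2:**
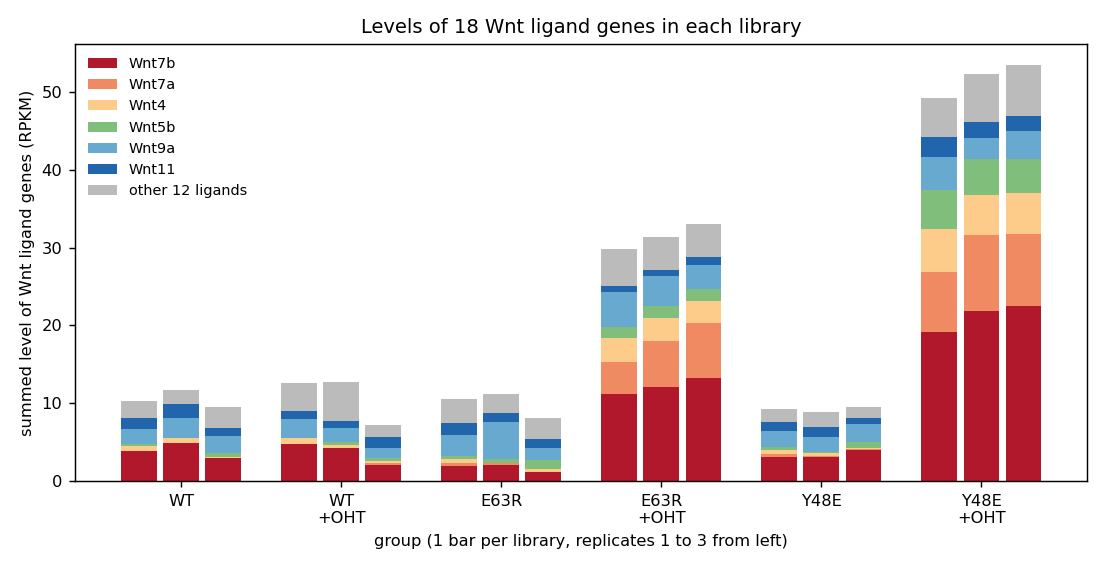
Summed RPKM of the 18 ligand genes (vertical axis), 1 bar per library, stacked by gene, for the 6 groups (horizontal axis). The 3 OHT bars of the HDAC1–E63R line reach 29.9 to 33.0 RPKM and those of the HDAC1–Y48E line 49.1 to 53.5 RPKM, while all other bars stay at or under 12.7 RPKM.

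Wnt7b (chromosome 15, 85535437–85582473, minus strand, GRCm38, gene coordinates here and in what follows from GENCODE M21, whose starts can differ from those of RefSeq), a ligand with roles in lung and placental development, was the most abundant ligand per length in the untreated HDAC1-WT line. It was counted at 19.4, 24.2 and 14.6 CPM in the untreated HDAC1-WT libraries and at 23.4, 20.9 and 10.2 CPM after OHT. In the HDAC1–E63R line it went from 9.52, 10.5 and 6.06 CPM to 54.7, 59.5 and 65.2 CPM, and in the HDAC1–Y48E line from 15.5, 15.1 and 19.8 CPM to 94.2, 107 and 110 CPM. Each OHT library of a mutant line stood above every untreated library of any line, and the HDAC1-WT groups overlapped. The increase was 6.85-fold with HDAC1–E63R (log2 fold change 2.78, SE 0.25, adjusted p = 6.24e-08) and 6.16-fold with HDAC1–Y48E (2.62, SE 0.23, adjusted p = 1e-08), against a log2 change of −0.10 (SE 0.23, adjusted p = 0.952) with HDAC1-WT. The difference from the HDAC1-WT response passed the test for both mutants, by a log2 of 2.87 (SE 0.34, adjusted p = 1.72e-05) and 2.72 (SE 0.33, adjusted p = 2.99e-06). Between the mutants the responses differed by a log2 of −0.15 (SE 0.33, adjusted p = 0.871). Untreated HDAC1–E63R cells began lower than untreated HDAC1-WT cells (log2 difference −1.15, SE 0.25, adjusted p = 0.00136), a call that was lost without untreated HDAC1–E63R replicate 3 (−0.95) or untreated HDAC1-WT replicate 2 (−0.96).

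Wnt7a (chromosome 6, 91363981–91411363, minus strand), the close relative of Wnt7b that patterns limb and reproductive tract, was near absent from untreated cells. No read was counted in the 3 untreated HDAC1-WT libraries, and the OHT libraries of that line held 0, 0 and 9 counts. In the HDAC1–E63R line it went from 1.11, 0.452 and 0 CPM to 13.1, 18.6 and 22.0 CPM, and in the HDAC1–Y48E line from 1.21, 0.456 and 0.431 CPM to 24.3, 31.1 and 29.2 CPM. The OHT libraries of both mutant lines lay apart from all 12 other libraries. The increases were 31.6-fold (log2 fold change 4.98, SE 0.60, adjusted p = 5.19e-06) and 39.7-fold (5.31, SE 0.58, adjusted p = 3.98e-07). The change in the HDAC1-WT line, which rests on the 9 counts of 1 library against 0 counts, was not called (adjusted p = 0.447). The differences of the responses from HDAC1-WT were not called either, at a log2 of 0.43 (SE 0.89, adjusted p = 0.85) for HDAC1–E63R and 0.76 (SE 1.74, adjusted p = 0.81) for HDAC1–Y48E, sizes that depend on the prior count of the fit. Their SEs, derived from the test statistic, are below that of the HDAC1-WT response alone (2.00) and so do not measure their precision.

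Wnt4 (chromosome 4, 137277489–137299726, plus strand), a ligand of gonad and kidney development, was at 2.33, 2.45 and 0.5 CPM in the untreated and 3.18, 1.45 and 0.883 CPM in the OHT-treated HDAC1-WT line. It went from 2.59, 0.339 and 1.37 CPM to 13.0, 12.1 and 12 CPM with HDAC1–E63R and from 1.98, 1.48 and 0.431 CPM to 23.1, 21.2 and 21.9 CPM with HDAC1–Y48E. The OHT libraries of each mutant line were tightly grouped and did not meet their untreated controls. The increase was 8.33-fold with HDAC1–E63R (log2 fold change 3.06, SE 0.51, adjusted p = 0.000163) and 16.9-fold with HDAC1–Y48E (4.08, SE 0.53, adjusted p = 2.02e-06). The difference from the HDAC1-WT response was called for HDAC1–Y48E (4.05, SE 0.76, adjusted p = 0.000515) and missed the threshold for HDAC1–E63R (3.02, SE 0.75, adjusted p = 0.0183). Exons of Wnt4 share short stretches of 150 to 169 bases with other genes at 95–96.8% identity, and reads from these could be split between them.

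Wnt5b, Wnt3a, Wnt11 and Wnt9b were called higher with HDAC1–Y48E but not with HDAC1–E63R, and for none of the 4 was the difference between the 2 mutant responses called. Nor was the difference of the HDAC1–Y48E response from that of HDAC1-WT called for any of the 4. Wnt5b, which acts largely outside the β-catenin pathway, went from 1.10, 0.342 and 1.94 CPM to 13.2, 12.5 and 11.6 CPM with HDAC1–Y48E, and from 0.739, 1.35 and 3.09 CPM to 3.81, 4.38 and 4.21 CPM with HDAC1–E63R. In the HDAC1-WT line it was at 0.837, 0 and 1.5 CPM untreated and 0, 1.09 and 1.15 CPM after OHT. The groups of both mutant lines were separate, and the increase was called at 10.9-fold with HDAC1–Y48E (log2 fold change 3.44, SE 0.72, adjusted p = 0.000507) but not with HDAC1–E63R (1.27, SE 0.68, adjusted p = 0.185). The difference of the HDAC1–Y48E response from HDAC1-WT missed the threshold (3.46, adjusted p = 0.0276).

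Wnt3a, the canonical ligand used to sustain ESCs in culture, was low everywhere. It was at 1.12, 0.181 and 0.1 CPM and 1.93, 3.54 and 0.883 CPM in the HDAC1-WT line, at 1.29, 0.113 and 0.686 CPM and 6.04, 3.33 and 3.23 CPM with HDAC1–E63R, and at 0.11, 0.911 and 0.108 CPM and 2.21, 3.54 and 4.59 CPM with HDAC1–Y48E, untreated first. Its groups overlapped in the HDAC1-WT line and were separate in both mutant lines. The 9.03-fold increase with HDAC1–Y48E was called (log2 fold change 3.17, SE 0.86, adjusted p = 0.00471), and the changes with HDAC1–E63R (2.54, SE 0.78, adjusted p = 0.0204) and HDAC1-WT (2.14, SE 0.82, adjusted p = 0.35) were not. The HDAC1–Y48E call was lost without untreated replicate 1 or 3 or OHT replicate 2 or 3 (adjusted p between 0.0118 and 0.0282).

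Wnt11, a ligand of cell movement and heart development, moved in HDAC1–Y48E cells from 4.84, 5.35 and 3.02 CPM to 10.5, 8.52 and 8.19 CPM. It was at 5.49, 7.70 and 4.10 CPM untreated and 4.14, 3.90 and 5.74 CPM after OHT in the HDAC1-WT line, and at 6.29, 4.74 and 5.03 CPM untreated and 3.56, 3.24 and 4.11 CPM after OHT in the HDAC1–E63R line. Its HDAC1–Y48E libraries after OHT were thus above every other library, and its HDAC1–E63R libraries after OHT lay below their controls. The log2 fold change was 1.04 with HDAC1–Y48E (SE 0.30, adjusted p = 0.00747), a call lost with no filter on low counts (adjusted p = 0.0178) and on leaving out any library of the comparison except untreated replicate 2 (values from 0.83 to 1.11), and −0.56 with HDAC1–E63R (SE 0.31, adjusted p = 0.194). The responses of the 2 mutants differed by a log2 of 1.60 (SE 0.43, adjusted p = 0.0309), short of the threshold, and 8.80% of the Wnt11 exons overlap a gene on the other strand.

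Wnt9b, a ligand of kidney and craniofacial development, had 0 counts in the 3 untreated HDAC1–Y48E libraries and 6, 32 and 8 counts after OHT. The increase was at least 4.25-fold against a floor of 3 counts per library (adjusted p = 0.0063). The call was lost when OHT replicate 2, which held most of the counts, was left out (adjusted p = 0.0346), and also without any 1 of the untreated libraries. In the other lines Wnt9b stayed at or under 0.739 CPM except after OHT with HDAC1–E63R, where it was at 1.24, 0.572 and 1.47 CPM.

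**Figure D3:**
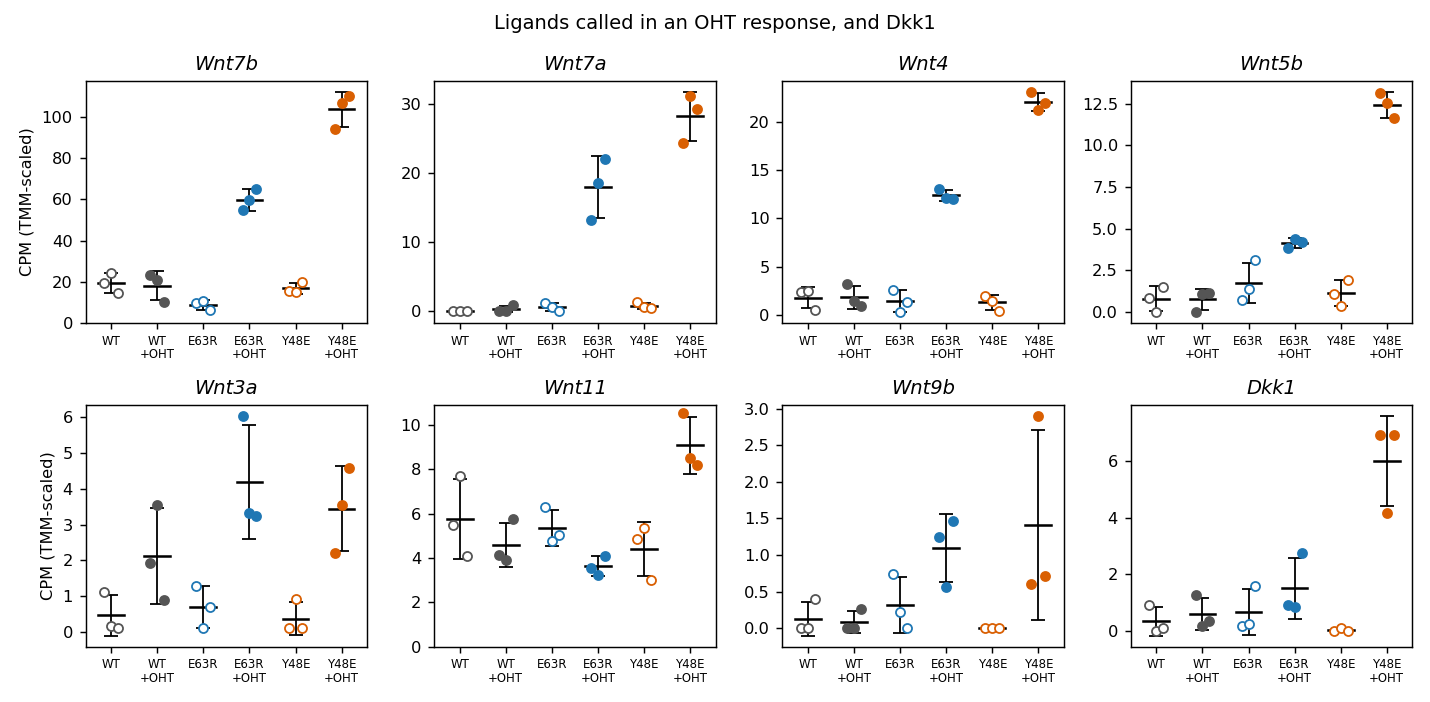
TMM-scaled CPM (vertical axes, different ranges) of the 7 ligand genes called after OHT in a mutant line and of Dkk1, in each library of the 6 groups (horizontal axes). Open circles are untreated and filled circles OHT-treated libraries, black lines are group means and bars SD (n = 3). Wnt7b, Wnt7a and Wnt4 stand apart from their controls in both mutant lines, and Wnt11 and Dkk1 are above all other libraries with HDAC1–Y48E after OHT.

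The other 11 ligand genes were not called in any OHT response. Among those tested, Wnt10b had adjusted p = 0.0133 with HDAC1–Y48E (0, 0 and 0.431 CPM against 1.81, 1.45 and 3.15 CPM), Wnt8a 0.0155 (0 in each library against 1.10, 0.453 and 1.08 CPM, at least 2.65-fold) and Wnt9a 0.057 (6.60, 6.38 and 7.86 CPM against 14.4, 8.89 and 12.1 CPM). Wnt16 had adjusted p = 0.0156 with HDAC1–E63R, where it went from 0 in each library to 0.828, 1.05 and 0.489 CPM (at least 2.47-fold). In these 4 cases, listed for their low adjusted p, the groups did not overlap. The share of all tested genes with separate groups was not counted, for these or for other members whose groups are given as separate. Separation is therefore a description of the libraries and not a further test. Wnt2b, Wnt5a and Wnt6 ranged over 0–2.51, 0.0953–2.31 and 0.883–5.20 CPM and had overlapping groups with HDAC1–E63R. With HDAC1–Y48E the groups of Wnt5a overlapped, and Wnt2b and Wnt6 were higher after OHT without overlap. Wnt1, Wnt2, Wnt8b and Wnt10a did not pass the filter on low counts. Of these, Wnt8b held 1 count in the untreated and 33 in the OHT-treated HDAC1–Y48E libraries (ratio 27.9, 95% interval 4.67 to 1136), and Wnt1 0 counts against 8, 4 and 2 (at least 1.35-fold). Intervals and floors cover counting error only, as PCR copies of 1 molecule were not told apart.

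Among the 10 Frizzled receptors, Fzd7 fell and Fzd6 rose in both mutant lines, and Fzd5 and Fzd9 fell with HDAC1–Y48E. Summed over the 10 genes, the HDAC1–Y48E line went from 60.8–66.8 to 38.1–38.5 RPKM and the HDAC1–E63R line from 60.9–74.1 to 43.7–49.5 RPKM, and the HDAC1-WT line from 47.9–53.0 to 50.9–54.5 RPKM. Fzd7 and Fzd5 together were the main receptors, with 27.8% and 26.6% of the Frizzled RPKM in untreated HDAC1-WT cells, 34.9% and 24.6% in untreated HDAC1–Y48E cells and 18.4% and 17.4% after OHT in the latter.

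Fzd7 (chromosome 1, 59482424–59486955, plus strand), a Frizzled receptor long associated with WNT responses of pluripotent cells, was at 54.9, 65.7 and 72.1 CPM in the untreated and 73.4, 65.6 and 72.8 CPM in the OHT-treated HDAC1-WT line. It went from 141, 146 and 113 CPM to 69.5, 60.7 and 62.6 CPM with HDAC1–E63R and from 103, 101 and 97.9 CPM to 30.2, 32.5 and 33.1 CPM with HDAC1–Y48E. Neither mutant line overlapped between its groups, and after OHT the HDAC1–E63R libraries lay in the range of the HDAC1-WT line while those of HDAC1–Y48E lay below all others. The decrease was 2.08-fold with HDAC1–E63R (SE 0.12 on the log2 scale, adjusted p = 1.35e-06) and 3.15-fold with HDAC1–Y48E (log2 fold change −1.66, SE 0.12, adjusted p = 5.90e-10). Without untreated HDAC1–E63R replicate 2 the first of these was −0.99 on the log2 scale, just inside the fold limit. Both responses differed from that of HDAC1-WT, by a log2 of −1.19 (SE 0.17, adjusted p = 0.000117) and −1.79 (SE 0.17, adjusted p = 9.22e-08). The untreated mutant lines began higher, by a log2 of 1.06 (SE 0.12, adjusted p = 7.90e-07) with HDAC1–E63R, which was called, and of 0.65 (SE 0.12, adjusted p = 0.000337) with HDAC1–Y48E, which was not. The former call was lost without untreated HDAC1-WT replicate 1 (0.95) or untreated HDAC1–E63R replicate 2 (0.99).

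Fzd5 (chromosome 1, 64730558–64737751, minus strand), a receptor required for yolk sac and eye development, was at 88.4, 90.1 and 102 CPM in untreated HDAC1-WT cells and at 104, 105 and 122 CPM after OHT. With HDAC1–Y48E it went from 105, 104 and 116 CPM to 45.5, 51.2 and 41.6 CPM, and with HDAC1–E63R from 117, 127 and 73.9 CPM to 85, 74.5 and 92.4 CPM. The HDAC1–Y48E groups were separate and the HDAC1–E63R groups overlapped, the lowest untreated value being that of replicate 3. The 2.35-fold decrease with HDAC1–Y48E was called (log2 fold change −1.24, SE 0.15, adjusted p = 1.07e-06) and differed from the HDAC1-WT response by −1.48 (SE 0.21, adjusted p = 2.64e-05). The change with HDAC1–E63R was −0.34 (adjusted p = 0.105), and the mutants differed by −0.90 (SE 0.21, adjusted p = 0.0137). A gene on the opposite strand overlaps 17.8% of the Fzd5 exons.

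Fzd9, a receptor expressed in the nervous system, went from 16.8, 22.3 and 23.1 CPM to 11.4, 10.3 and 8.73 CPM with HDAC1–Y48E and from 18.7, 17.2 and 30.8 CPM to 13.6, 11.3 and 9.20 CPM with HDAC1–E63R. It was at 10.3, 14.9 and 12.9 CPM and 9.24, 10.4 and 12.6 CPM in the HDAC1-WT line. Both mutant lines had separate groups, and the log2 fold change was −1.03 (SE 0.23, adjusted p = 0.00106, called) and −0.96 (SE 0.23, adjusted p = 0.00378, not called). The HDAC1–Y48E value lay close to the fold limit and was −0.99 with RLE factors or DESeq2, and −0.93 to −0.97 without untreated replicate 2, untreated replicate 3 or OHT replicate 3. Fzd10 fell short of the fold limit with HDAC1–Y48E, from 17.4, 22.0 and 21 CPM to 11.2, 11.2 and 10.1 CPM (−0.89, SE 0.17, adjusted p = 0.000169).

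Fzd6 (chromosome 15, 39006034–39038188, plus strand), a receptor of the planar polarity branch that shapes hair patterning, moved the other way. It was at 15.2, 12.9 and 11.1 CPM untreated and 13.9, 13.2 and 15.9 CPM after OHT in the HDAC1-WT line, at 2.59, 3.28 and 2.06 CPM and then 9.27, 10.1 and 7.73 CPM with HDAC1–E63R, and at 3.52, 4.21 and 6.79 CPM and then 15.0, 14.1 and 15.3 CPM with HDAC1–Y48E. The untreated mutant lines were below all HDAC1-WT libraries, and after OHT the HDAC1–Y48E libraries lay within the HDAC1-WT range. The increase was 3.41-fold with HDAC1–E63R (log2 fold change 1.77, SE 0.26, adjusted p = 3.69e-05) and 3.04-fold with HDAC1–Y48E (1.61, SE 0.24, adjusted p = 1.44e-05). The untreated lines differed from untreated HDAC1-WT by a log2 of −2.30 (SE 0.26, adjusted p = 8.51e-07) and −1.43 (SE 0.24, adjusted p = 0.000166). The differences of the responses from HDAC1-WT were 1.63 (SE 0.34, adjusted p = 0.0055) and 1.47 (SE 0.33, adjusted p = 0.0025). The former missed the threshold when any 1 of 7 libraries was left out (adjusted p up to 0.0201), namely untreated or OHT HDAC1-WT replicate 1 or 2, untreated HDAC1–E63R replicate 1, or OHT HDAC1–E63R replicate 1 or 2. The latter did so without untreated HDAC1–Y48E replicate 1 (adjusted p = 0.0104). The other 5 receptors, Fzd1, Fzd2, Fzd3, Fzd4 and Fzd8, were not called, and with HDAC1–Y48E their log2 fold changes lay between 0.18 and 0.63, the lowest adjusted p being 0.0187 for Fzd3.

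**Figure D4:**
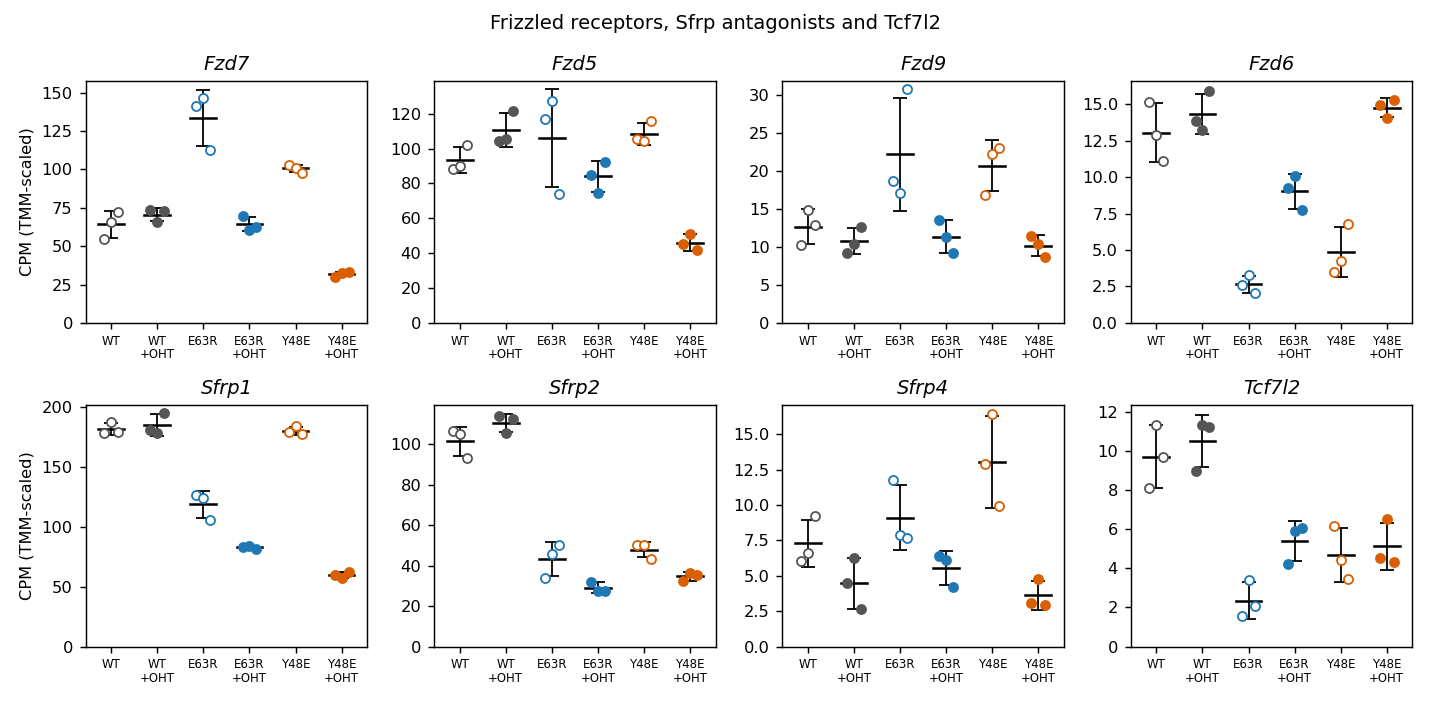
TMM-scaled CPM (vertical axes, different ranges) of 4 Frizzled receptor genes, 3 Sfrp antagonist genes and Tcf7l2 in each library of the 6 groups (horizontal axes). Open circles are untreated and filled circles OHT-treated libraries, black lines are means and bars SD (n = 3). Sfrp1 is at 57.6 to 62.2 CPM with HDAC1–Y48E after OHT and above 100 CPM in every untreated library.

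Of the 7 secreted antagonists tested, Sfrp1 and Sfrp4 fell and Dkk1 rose with HDAC1–Y48E, and none was called with HDAC1–E63R, where 4 of the 7, and 6886 of all 18791 tested genes, had an unadjusted p under 0.05. The SFRPs resemble the ligand-binding part of Frizzled and sequester WNT ligands, DKK1 blocks the LRP co-receptors, and NOTUM removes the lipid from WNT ligands. Summed over 9 genes, antagonists held 101.7–112.1 RPKM untreated and 109.7–117.7 RPKM after OHT in the HDAC1-WT line, 54.1–61.3 and 45.7–46.6 RPKM in the HDAC1–E63R line, and 75.5–81.7 and 45.6–49.4 RPKM in the HDAC1–Y48E line. Per length the antagonist sum exceeded the ligand sum by a wide margin in untreated cells, and the 2 ranges, 45.6–49.4 and 49.1–53.5 RPKM, met in the HDAC1–Y48E line after OHT.

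Sfrp1 (chromosome 8, 23411502–23449632, plus strand) supplied 38.9% of the antagonist RPKM in untreated HDAC1-WT cells, and Sfrp2 supplied 43.9%. It was at 179, 188 and 179 CPM in those libraries and at 182, 179 and 195 CPM after OHT. It went from 127, 124 and 106 CPM to 82.9, 83.8 and 82.0 CPM with HDAC1–E63R and from 180, 184 and 177 CPM to 60.1, 57.6 and 62.2 CPM with HDAC1–Y48E. Untreated HDAC1–Y48E cells overlapped the HDAC1-WT range, untreated HDAC1–E63R cells were already below it, and both mutant lines had separate groups. The decrease was 3.01-fold with HDAC1–Y48E (log2 fold change −1.59, SE 0.09, adjusted p = 1.56e-11) and smaller than the fold limit with HDAC1–E63R (−0.52, SE 0.09, adjusted p = 0.000253). The HDAC1–Y48E response differed from that of HDAC1-WT by −1.61 (SE 0.13, adjusted p = 8.78e-09) and from that of HDAC1–E63R by −1.07 (SE 0.13, adjusted p = 2.87e-05). The latter was −0.99 (adjusted p = 2.32e-09) without untreated HDAC1–E63R replicate 3, short of the fold limit. Sfrp1 was the only member of the 42 for which the 2 mutant responses differed by the call rule, where 0.99% of all tested genes were called lower with HDAC1–Y48E and 0.319% higher.

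Sfrp4 fell 3.58-fold with HDAC1–Y48E, from 12.9, 16.4 and 9.91 CPM to 3.11, 4.81 and 2.97 CPM (log2 fold change −1.84, SE 0.32, adjusted p = 8.94e-05). It was at 6.05, 6.62 and 9.20 CPM and 4.53, 6.26 and 2.65 CPM in the HDAC1-WT line and at 11.7, 7.91 and 7.66 CPM and 6.37, 6.10 and 4.21 CPM with HDAC1–E63R. Neither of these changes was called, with log2 fold changes of −0.70 and −0.71, and the Sfrp4 response with HDAC1–Y48E did not differ from that of HDAC1-WT by the call rule. Sfrp2 was at 106, 105 and 93.2 CPM in untreated HDAC1-WT cells and lower in the untreated mutant lines, at 33.7, 45.7 and 50.2 CPM with HDAC1–E63R (log2 difference −1.23, SE 0.13, adjusted p = 3.36e-07) and 50.3, 50.1 and 43.4 CPM with HDAC1–Y48E (−1.08, SE 0.13, adjusted p = 2.35e-06). Its further changes with OHT, −0.57 and −0.47, were within the fold limit.

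Dkk1 went from 0, 1 and 0 counts in the untreated HDAC1–Y48E libraries to 69, 46 and 77 counts after OHT, which corresponds to 6.93, 4.17 and 6.93 CPM. The ratio was 162.4 with a 95% counting interval from 28.8 to 6448, and the increase was called (adjusted p = 0.000168). In the HDAC1-WT line Dkk1 was at 0.93, 0 and 0.1 CPM untreated and 1.25, 0.181 and 0.353 CPM after OHT, and with HDAC1–E63R at 0.185, 0.226 and 1.60 CPM and 0.911, 0.858 and 2.74 CPM. These groups overlapped, and the HDAC1–Y48E OHT libraries were above them all. The differences of the HDAC1–Y48E response from those of HDAC1-WT and HDAC1–E63R missed the threshold (adjusted p = 0.0142 and 0.0471). Notum was at 0.186, 1.09 and 1.20 CPM in untreated HDAC1-WT cells and 1.16, 1.72 and 1.94 CPM after OHT, at 1.85, 3.73 and 1.94 CPM and then 3.89, 5.53 and 4.30 CPM with HDAC1–E63R, and at 3.96, 3.07 and 1.83 CPM and then 5.12, 4.26 and 6.21 CPM with HDAC1–Y48E. Its means were higher after OHT in each line, by a log2 of 0.96, 0.87 and 0.81, and none of these changes passed the test (adjusted p = 0.588, 0.179 and 0.156). Notumos on the opposite strand overlaps 29.4% of the Notum exons. Dkk3 and Sfrp5 were not called after OHT, and Dkk2 and Dkk4 were too low to test.

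R-spondins bind LGR receptors and withdraw ZNRF3 and RNF43, ubiquitin ligases that remove Frizzled from the cell surface, and so raise the response to WNT ligands. Rspo1 went from 3.08, 4.10 and 1.61 CPM to 13.7, 14.3 and 12.5 CPM with HDAC1–Y48E, a separate and 4.60-fold higher group (log2 fold change 2.20, SE 0.45, adjusted p = 0.000434). With HDAC1–E63R it was at 4.07, 4.74 and 3.09 CPM and then 6.95, 7.91 and 4.79 CPM (0.72, adjusted p = 0.246), and in the HDAC1-WT line at 0.558, 2.45 and 2.00 CPM and 3.37, 2.81 and 0.707 CPM. Rspo4 also rose in the HDAC1–Y48E line, from 0.88, 4.10 and 2.48 CPM to 10.6, 8.07 and 13.2 CPM, a 4.28-fold increase (log2 fold change 2.1, SE 0.55, adjusted p = 0.00377). It was at 1.57, 0.904 and 2.29 CPM and then 3.89, 2.57 and 5.38 CPM with HDAC1–E63R (1.31, adjusted p = 0.105), and at 5.30, 0.634 and 3.50 CPM and 3.95, 3.81 and 1.94 CPM in the HDAC1-WT line. The Rspo4 call was lost without untreated replicate 1 or 3 or OHT replicate 1 or 3 (adjusted p between 0.0107 and 0.0264). For neither Rspo1 nor Rspo4 was the difference of the HDAC1–Y48E response from that of HDAC1-WT called.

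Rspo2 and Rspo3 held at most 7 and 4 counts in a library. Lgr5, the intestinal stem cell marker, had 0 counts in all 6 HDAC1-WT libraries and in the 3 untreated HDAC1–Y48E libraries, and 6, 12 and 16 counts in the latter line after OHT, at least 3.15-fold higher. In the HDAC1–E63R line it went from 0.0924, 0.339 and 0 CPM to 0.828, 0.381 and 0.685 CPM. It did not pass the filter, and with no filter the HDAC1–Y48E change had adjusted p = 0.013. Lgr4, the main LGR gene of these cells with 58.1% of the RPKM of the R-spondin arm in untreated HDAC1-WT cells, went from 52.8, 63.9 and 64.2 CPM to 45.4, 39.6 and 41.9 CPM with HDAC1–Y48E (−0.51, SE 0.16, adjusted p = 0.0154), and neither Lgr6 nor Znrf3 was called in any line.

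The feedback gene Axin2, commonly read as a report of β-catenin activity, was at 7.44, 6.07 and 9.0 CPM in the untreated HDAC1-WT line and 7.51, 9.89 and 9.98 CPM after OHT. It was at 16.2, 22.0 and 10.8 CPM and then 15.5, 13.2 and 14.2 CPM with HDAC1–E63R, and at 16.5, 17.0 and 13.0 CPM and then 15.4, 21 and 16.6 CPM with HDAC1–Y48E. The groups of each line overlapped, and the log2 fold changes with OHT were 0.29, −0.19 and 0.19 (SE 0.24 in the HDAC1-WT line, adjusted p = 0.787, 0.583 and 0.521). The HDAC1–E63R value was 0.079 without untreated replicate 2. Every library of the mutant lines was above every untreated HDAC1-WT library, and Axin2 was called higher in both untreated mutant lines, by a log2 of 1.12 (SE 0.24, adjusted p = 0.0011) and 1.05 (SE 0.24, adjusted p = 0.00265). The former call was lost without untreated HDAC1-WT replicate 2 (0.99) or untreated HDAC1–E63R replicate 2 (0.85), and the latter without untreated HDAC1-WT replicate 1 or 2 or untreated HDAC1–Y48E replicate 1 or 2 (0.91 to 1.04, adjusted p from 0.0122). Axin1, the constitutive scaffold, stayed between 65.0 and 89.6 CPM in all 18 libraries and was not called.

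Of the TCF/LEF factors, Tcf7 was the most abundant per length, with 75.9% of the RPKM of the 4 genes in untreated HDAC1-WT cells. It was at 85.1, 82.6 and 75.1 CPM and 91.0, 82.5 and 75.1 CPM in the HDAC1-WT line, at 86.2, 66.9 and 60.5 CPM and 56.7, 57.4 and 59.3 CPM with HDAC1–E63R, and at 80.5, 79.5 and 75.8 CPM and 60.9, 57.2 and 57.9 CPM with HDAC1–Y48E. The groups were separate in the mutant lines, by small amounts that were not called (log2 fold change −0.30, adjusted p = 0.0662, and −0.42, SE 0.12, adjusted p = 0.00648). Tcf7l1, the repressor of naive genes, was at 26.8, 29.0 and 36.4 CPM and 28.6, 31.9 and 26.2 CPM in the HDAC1-WT line, at 51.9, 50.6 and 28.9 CPM and 37.9, 35.5 and 38.0 CPM with HDAC1–E63R, and at 43.3, 53.4 and 35.4 CPM and 30.4, 33.5 and 23.8 CPM with HDAC1–Y48E. Its HDAC1–Y48E groups were separate, with a log2 fold change of −0.59 (SE 0.19, adjusted p = 0.0171), and were not called.

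Lef1 was at 6.79, 7.34 and 8.30 CPM in untreated HDAC1-WT cells and 4.33, 5.35 and 10.9 CPM after OHT. It was lower in the mutant lines, at 2.59, 1.24 and 1.26 CPM and then 1.66, 3.33 and 2.45 CPM with HDAC1–E63R, and at 1.21, 2.16 and 1.19 CPM and then 0.402, 0.998 and 0 CPM with HDAC1–Y48E. All 12 libraries of the mutant lines were below all 6 of the HDAC1-WT line, and the untreated differences were called, by a log2 of −2.11 (SE 0.54, adjusted p = 0.00501) and −2.29 (SE 0.55, adjusted p = 0.00396). Leaving out any 1 of the 3 untreated HDAC1-WT libraries ended both calls, and the call of a mutant line was also lost without untreated HDAC1–E63R replicate 2, or without untreated HDAC1–Y48E replicate 1 or 3 (adjusted p up to 0.0241). The decrease of Lef1 with OHT in the HDAC1–Y48E line was not called (−1.67, SE 0.67, adjusted p = 0.0471), but was without OHT replicate 2 (−2.90, adjusted p = 0.00834). Tcf7l2 was at 8.09, 11.3 and 9.70 CPM and 8.96, 11.3 and 11.2 CPM in the HDAC1-WT line, at 1.57, 3.39 and 2.06 CPM and 4.22, 5.91 and 6.07 CPM with HDAC1–E63R, and at 6.16, 4.44 and 3.45 CPM and 4.52, 6.53 and 4.32 CPM with HDAC1–Y48E. The 2.32-fold increase with HDAC1–E63R was called (log2 fold change 1.21, SE 0.33, adjusted p = 0.00873), but not when any library of the comparison other than untreated replicate 2 was left out (adjusted p between 0.0102 and 0.048).

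**Figure D5:**
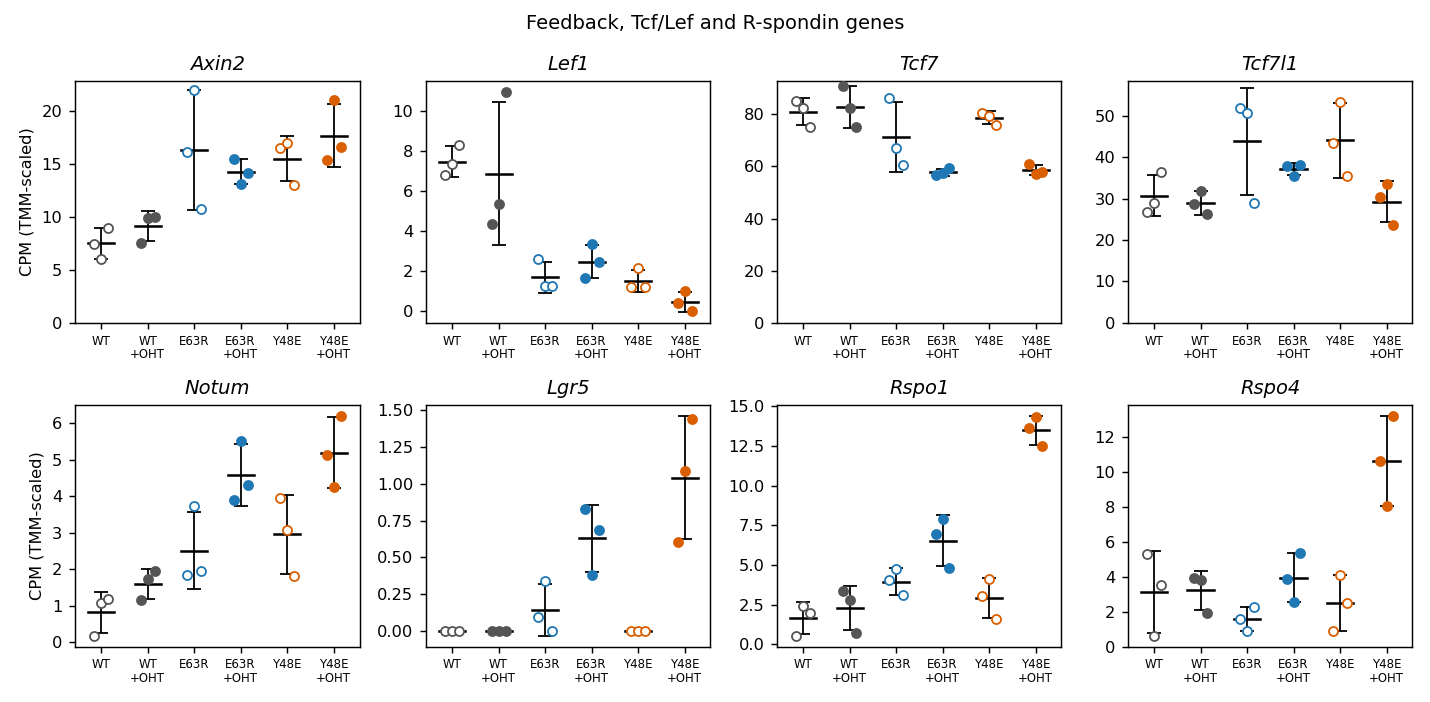
TMM-scaled CPM (vertical axes, different ranges) of Axin2, 3 Tcf/Lef genes, Notum, Lgr5, Rspo1 and Rspo4 in each library of the 6 groups (horizontal axes). Open circles are untreated and filled circles OHT-treated libraries, black lines are means and bars SD (n = 3). Axin2 is higher and Lef1 lower in both mutant lines than in the untreated HDAC1-WT line already before OHT, and Rspo1 reaches 12.5 to 14.3 CPM only with HDAC1–Y48E after OHT.

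Some members thus differed between the lines before any deletion. Compared with untreated HDAC1-WT cells, 2 members were called higher (Axin2 and Fzd7, background 3.32%) and 7 lower (Wnt7b, Fzd6, Sfrp2, Sfrp5, Dkk3, Lef1 and Tcf7l2, background 4.33%) in untreated HDAC1–E63R cells. In untreated HDAC1–Y48E cells 1 was called higher (Axin2, background 2.62%) and 3 lower (Fzd6, Sfrp2 and Lef1, background 2.95%). Both comparisons share the 3 untreated HDAC1-WT libraries. Without untreated HDAC1–E63R replicate 3 the counts for that line were 4 higher and 6 lower. Tested as the difference of OHT responses, 2 members were called higher (background 1.25%) and 1 lower (0.436%) for HDAC1–E63R against HDAC1-WT, and 3 higher (4.65%) and 3 lower (3.97%) for HDAC1–Y48E against HDAC1-WT. The other members called in the OHT response of a mutant line did not differ from HDAC1-WT by this test and the call rule. The 0 members called higher for HDAC1–Y48E against HDAC1–E63R compare with 1 by DESeq2, and 16 of the 42 had an unadjusted p under 0.05 in either direction in that comparison, as did 3540 of all 18791 tested genes.

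Other genes of the pathway were counted by list, to be read against the backgrounds over all tested genes, which were 4.74% called higher and 1.18% lower with HDAC1–E63R and 10.8% higher and 5.84% lower with HDAC1–Y48E. No gene of any of these lists was called in the HDAC1-WT line. Of 8 genes for WNT secretion and co-receptors, only Porcn, the acyltransferase that lipidates WNT ligands, was called, higher with HDAC1–Y48E at 10.9 ± 2.11 CPM untreated and 29.5 ± 1.60 CPM after OHT (SD, n = 3 each; log2 fold change 1.43, SE 0.24, adjusted p = 5.59e-05). Of 16 signal transduction genes, 1 was called higher (background 10.8%) and 2 lower (background 5.84%) with HDAC1–Y48E and none with HDAC1–E63R. The kinase gene Csnk1a1, whose product primes β-catenin for degradation, went from 656.6 ± 36.5 to 225.2 ± 4.38 CPM (−1.54, SE 0.09, adjusted p = 7.75e-12), Dvl2, which relays the Frizzled signal, from 153.3 ± 9.28 to 69.9 ± 0.747 CPM (−1.13, SE 0.11, adjusted p = 2.41e-08), and Amer1, which binds APC, from 14.1 ± 2.81 to 38.5 ± 2.71 CPM (1.45, SE 0.17, adjusted p = 4.88e-07). Ctnnb1, the β-catenin gene, was at 706.2 ± 11.3 CPM untreated and 757.5 ± 28.9 CPM after OHT (0.10, SE 0.08, adjusted p = 0.32). Csnk1a1, Dvl2 and Amer1 moved the same way with HDAC1–E63R, within the fold limit. Their log2 fold changes there were −0.93, −0.67 and 0.85 (adjusted p = 9.44e-08, 7.6e-05 and 0.00079).

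Of 10 nuclear cofactor genes, 2 were called lower with HDAC1–Y48E (background 5.84%) and none with HDAC1–E63R. Tle3, a Groucho corepressor of TCF factors, went from 224.0 ± 7.22 to 56.7 ± 1.39 CPM (−1.98, SE 0.10, adjusted p = 3.35e-12), and Pygo2, a β-catenin coactivator subunit, from 58.1 ± 4.17 to 27.9 ± 1.68 CPM (−1.05, SE 0.11, adjusted p = 1.07e-07). With HDAC1–E63R both also fell, within the fold limit, by a log2 of −0.78 and −0.34 (adjusted p = 6.89e-06 and 0.023). Of 14 tested inhibitor genes outside the set, 3 were called higher (background 4.74%) and 1 lower (1.18%) with HDAC1–E63R, and 5 higher (10.8%) and 1 lower (5.84%) with HDAC1–Y48E. Rnf43, the ubiquitin ligase paralogous to Znrf3, fell in both, from 5.90 ± 1.65 to 1.34 ± 0.519 CPM (−2.12, SE 0.40, adjusted p = 0.000552) and from 7.86 ± 2.53 to 1.41 ± 0.635 CPM (−2.46, SE 0.40, adjusted p = 3.56e-05). The Dishevelled antagonist Nkd2 rose in both, from 7.35 ± 0.675 to 15.8 ± 1.91 CPM (1.10, SE 0.23, adjusted p = 0.00146) and from 6.14 ± 0.573 to 21.1 ± 2.80 CPM (1.78, SE 0.24, adjusted p = 3.11e-06). Kremen2, a partner of DKK1 at the LRP co-receptors, also rose in both, from 1.80 ± 1.19 to 8.09 ± 2.98 CPM (2.18, SE 0.45, adjusted p = 0.00117) and from 2.85 ± 0.53 to 10.9 ± 1.35 CPM (1.94, SE 0.43, adjusted p = 0.000933). Nkd1, the relative of Nkd2, was called with HDAC1–Y48E, from 9.46 ± 1.96 to 29.1 ± 5.05 CPM (1.62, SE 0.25, adjusted p = 2.11e-05), and not with HDAC1–E63R (0.82, adjusted p = 0.021). Without untreated HDAC1–E63R replicate 3, 4 of these inhibitor genes were called higher and 1 lower in that line.

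Of 9 planar polarity genes, 2 were called higher with HDAC1–E63R (background 4.74%) and 3 with HDAC1–Y48E (background 10.8%). Called in both were Prickle1 (log2 fold change 1.78, SE 0.27, adjusted p = 4.99e-05, and 2.38, SE 0.27, adjusted p = 2.97e-07) and its paralogue Prickle2 (2.05, SE 0.37, adjusted p = 0.000327, and 1.88, SE 0.34, adjusted p = 0.000136). Daam2, a formin that acts with Dishevelled, was called with HDAC1–Y48E, from 0.4 ± 0.386 to 6.22 ± 1.85 CPM (3.91, SE 0.81, adjusted p = 0.000475), and not with HDAC1–E63R (2.82, adjusted p = 0.0159). Of 10 tested β-catenin target genes, 2 were called higher with HDAC1–E63R (background 4.74%), Msx2 (2.36, SE 0.55, adjusted p = 0.00331) and Tnfrsf19 (1.08, SE 0.26, adjusted p = 0.00444), and 1 with HDAC1–Y48E (background 10.8%), Myc, which went from 1.20 ± 1.13 to 5.49 ± 1.07 CPM (2.17, SE 0.61, adjusted p = 0.00635). The uncalled changes in the other mutant line were 1.48 for Msx2, 0.93 for Tnfrsf19 and 1.63 for Myc (adjusted p = 0.021, 0.0066 and 0.0355). Of 6 naive pluripotency genes known to be repressed by TCF7L1, all 6 were called lower with HDAC1–Y48E (background 5.84%) and 1, Klf2, with HDAC1–E63R (background 1.18%), where none was called without untreated replicate 3. With HDAC1–Y48E, Esrrb went from 558.1 ± 13.1 to 179.1 ± 5.55 CPM and Nanog from 622.5 ± 29.1 to 254.0 ± 3.22 CPM (adjusted p = 1.3e-10 and 7.59e-10). In the same line Klf2 went from 219.8 ± 13.0 to 39.7 ± 4.04 CPM and Nr5a2 from 44.0 ± 4.72 to 11.9 ± 0.269 CPM (adjusted p = 1.81e-10 and 2.65e-08).

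Markers of cell types moved with the same comparisons. The summed CPM of the 8 ESC markers went from 6213–6264 to 2566–2704 with HDAC1–Y48E, with 6 of 8 called lower (background 5.84%). This sum went from 5554–8907 to 4668–5020 with HDAC1–E63R, with 1 called lower (background 1.18%), and from 7952–8130 to 8260–9041 with HDAC1-WT. The 8 trophoblast markers went from 142.8–150.6 to 861.6–911.0 CPM with HDAC1–Y48E, with 5 called higher (background 10.8%), from 143.4–159.9 to 385.2–415.2 CPM with HDAC1–E63R, with 3 called higher (background 4.74%), and from 271.3–289.1 to 314.7–338.0 CPM with HDAC1-WT. The sum thus stood above the HDAC1-WT range in both mutant lines after OHT and below it before. Krt8, a keratin of simple epithelia, went from 56.4 ± 3.65 to 741.8 ± 25.5 CPM with HDAC1–Y48E and made up most of the sum there after OHT. The other markers called higher in that line were Krt7 (17.8 ± 3.07 and 47.9 ± 4.53 CPM), Hand1 (1.70 ± 0.273 and 16.4 ± 0.348 CPM), Eomes (7.21 ± 0.42 and 15.0 ± 1.11 CPM) and Gata3 (2.44 ± 0.93 and 8.88 ± 2.62 CPM), the last 3 of which encode transcription factors. The defining markers Cdx2 and Elf5 were not called, at 0.375 ± 0.476 and 0.24 ± 0.415 CPM and at 0.11 ± 0.19 and 0.633 ± 0.272 CPM. Tfap2c was not called in that line either, at 59.5 ± 8.40 CPM untreated and 54.15 ± 3.52 CPM after OHT. In untreated HDAC1-WT cells Tfap2c was at 178.1 ± 4.27 CPM.

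No marker of the other cell types was called in the HDAC1-WT line. The backgrounds for the counts that follow were 10.8% higher and 5.84% lower with HDAC1–Y48E, and 4.74% higher and 1.18% lower with HDAC1–E63R. The 6 neural markers went from 100.6–103.4 to 156.8–173.9 CPM with HDAC1–Y48E, with 2 of 5 tested called higher and 2 lower, from 88.8–104.1 to 130.8–138.1 CPM with HDAC1–E63R, with 0 called, and from 79.5–82.7 to 82.5–106.7 CPM with HDAC1-WT. The 6 fibroblast markers went from 4.31–10.01 to 33.8–39.9 CPM, from 3.55–7.23 to 15.4–23.3 CPM and from 6.16–8.80 to 5.21–10.6 CPM in the same order, with 1 of 2 tested, Col1a1, called higher in each mutant line. Both sums were separate between the groups of each mutant line. The neural markers called higher with HDAC1–Y48E were Nes (26.6 ± 2.46 and 60.6 ± 3.43 CPM) and Map2 (9.79 ± 2.49 and 26.4 ± 2.90 CPM). Those called lower were Sox1 (12.7 ± 1.43 and 5.10 ± 0.772 CPM) and Pax6 (11.4 ± 2.22 and 2.085 ± 0.42 CPM), against the direction of the sum. The 6 primitive endoderm markers went from 107.1–112.5 to 95.96–109.1 CPM, from 33.3–71.4 to 73.8–87.2 CPM and from 85.1–92.3 to 86.0–100.4 CPM, with 1 called higher in each mutant line, and 0 with HDAC1–E63R without untreated replicate 3. The 6 primitive streak markers were low throughout, at 2.42–5.28 and 3.90–6.93 CPM, 2.15–5.45 and 2.98–4.4 CPM, and 2.61–4.50 and 2.03–2.81 CPM, with none of the 3 tested called. The part of these markers in the results above was not tested. In bulk RNA, fewer cells of a type and less RNA per cell cannot be told apart.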

How the data were processed

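RNA-seq had been carried out on 18 libraries in 6 groups. Per the labels, RNA was sequenced after NEBNext library preparation, the reads were assigned to mm10, and the submitters' processing notes name HISAT2 2.1.0, SAMtools 1.9 and HTSeq. The deposited values are raw counts per gene symbol. The annotation and the use of strand are not given in the sources used here, so reads of the 11 members that overlap a gene on the opposite strand cannot be told apart from that gene's. The 5 entries that name no gene held 59.4–61.2% of each library and were left out.

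Genes were filtered with filterByExpr (minimum count 10), scaled with TMM factors and tested with edgeR 4.0.16 in R 4.3.3 (quasi-likelihood F test, 1 mean per group, all 18 libraries). Adjusted p-values are Benjamini-Hochberg values over 18791 genes, and members were called at an adjusted p under 0.01 with a log2 fold change above 1 or below −1. Each SE is the absolute log2 fold change divided by the square root of the F statistic, and is unreliable where a group has 0 counts. These tests replaced the DESeq2 test of the authors, which was run as an alternative (DESeq2 1.42.0). The study describes the replicates as biological, while the labels do not say that they came from separate cultures, and p-values measure the spread between these samples. RPKM values used exon lengths of GENCODE M21, and promoters came from RefSeq. The scripts were tested on simulated data. Alternatives were RLE factors, no filter, a replicate block, only the libraries compared, DESeq2, and leaving out each library. Counts for the HDAC1–E63R line without untreated replicate 3 were added after seeing the data.

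The members, the other pathway lists and the markers were chosen with earlier results of these data known. Named were all members called in an OHT response or in a difference of responses, with Axin2, Lef1, Tcf7, Tcf7l1, Lgr5 and Notum, and up to 4 called genes of each pathway list by smallest p. Another gene that matches the same name pattern is not reported here.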

Additional observations from a re-analysis of the deposited data

Results flagged for a closer look

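The following members had OHT responses that differed between lines by the test of the difference itself (edgeR quasi-likelihood test, adjusted over 18791 genes). Against HDAC1-WT, the HDAC1–E63R response of Wnt7b was higher by a log2 of 2.87 (SE 0.34, adjusted p = 1.72e-05), that of Fzd6 higher by 1.63 (SE 0.34, adjusted p = 0.0055) and that of Fzd7 lower, at −1.19 (SE 0.17, adjusted p = 0.000117). Against HDAC1-WT, the HDAC1–Y48E response was higher for Wnt4 at 4.05 (SE 0.76, adjusted p = 0.000515), Wnt7b at 2.72 (SE 0.33, adjusted p = 2.99e-06) and Fzd6 at 1.47 (SE 0.33, adjusted p = 0.0025). It was lower for Fzd7 at −1.79 (SE 0.17, adjusted p = 9.22e-08), Sfrp1 at −1.61 (SE 0.13, adjusted p = 8.78e-09) and Fzd5 at −1.48 (SE 0.21, adjusted p = 2.64e-05). The 2 mutant responses differed from each other for Sfrp1, at −1.07 (HDAC1–Y48E minus HDAC1–E63R, SE 0.13, adjusted p = 2.87e-05). Comparisons against HDAC1-WT share its 6 libraries.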

How the results depend on the processing

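Results of single members kept their direction and side of the threshold in 265 of 275 recomputations under the alternatives that kept all libraries. These results were the calls and also the uncalled OHT responses of Axin2, Lef1, Tcf7, Tcf7l1 and Notum in the mutant lines, which had no call to lose. With HDAC1–Y48E, Fzd9 fell to −0.99 with RLE factors and with DESeq2, and Wnt11 was lost with no filter on low counts (adjusted p = 0.0178). With only the libraries compared, Tcf7l2 (adjusted p = 0.0838) and the Fzd6 difference from HDAC1-WT (0.0126) with HDAC1–E63R and the untreated HDAC1–E63R calls of Axin2 (0.0382), Sfrp5 (0.0175) and Wnt7b (0.027) were lost. On leaving out 1 library, 54 of 402 recomputations, which include the same uncalled responses, lost a call and 1 gained one, and the uncalled Axin2 response of the HDAC1–E63R line turned from −0.19 to 0.079 without untreated replicate 2 (range −0.42 to 0.079). The cause was not tested. Counts of members called higher moved beyond 1.5 times as follows. The difference of HDAC1–E63R from HDAC1-WT gave 1 with only the libraries compared. The difference of HDAC1–Y48E from HDAC1-WT gave 6 with no filter, 5 with only the libraries compared and 6 with DESeq2, and that of HDAC1–Y48E from HDAC1–E63R gave 1 with no filter and 1 with DESeq2. Untreated HDAC1–E63R against HDAC1-WT gave 1 with only the libraries compared, and untreated HDAC1–Y48E gave 3 with no filter, 2 with only the libraries compared and 4 with DESeq2. Leaving out each library in turn gave 0 to 0 calls higher and 0 to 0 lower in the HDAC1-WT line, 4 to 5 and 1 to 2 in the HDAC1–E63R line, and 7 to 10 and 4 to 6 in the HDAC1–Y48E line. Without untreated HDAC1–Y48E replicate 1, and also without replicate 3, the higher calls of Rspo4, Wnt3a, Wnt11 and Wnt9b were lost. For differences of responses the ranges were 1 to 3 and 1 to 1 (HDAC1–E63R from HDAC1-WT), 2 to 5 and 3 to 3 (HDAC1–Y48E from HDAC1-WT) and 0 to 0 and 0 to 2 (HDAC1–Y48E from HDAC1–E63R), and for untreated lines 0 to 4 and 5 to 7 (HDAC1–E63R) and 0 to 2 and 2 to 3 (HDAC1–Y48E). With a replicate block, 9 members were called higher with HDAC1–Y48E instead of 11, without Wnt11 (adjusted p = 0.0106) and Wnt9b (0.0108), and 3 instead of 2 for the HDAC1–E63R difference from HDAC1-WT, and other counts were within 1.5 times. Correlations of the deviations of same-numbered libraries were small (r from −0.02 to 0.04 in 9 pairs, and from −0.06 to 0.06 in 18 others), although 7 of 9 untreated libraries correlated best with their own number, and the numbers were not taken as pairs. Depth limits the 9 untested members and genes of a few counts, for which only a lower bound of the fold could be given.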
